A study of Mus musculus with 4 samples.

Results

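Embigin (Emb) and 9 genes of pyruvate and lactate handling were followed in mouse oocytes exposed to hydrostatic pressure. The set holds the accessory proteins Emb and Bsg, the monocarboxylate transporters Slc16a1, Slc16a3 and Slc16a7, the lactate dehydrogenases Ldha and Ldhb, and the pyruvate dehydrogenase subunits Pdha1, Pdhb and Dlat. They were found by gene name on the array, which names 27962 genes or transcripts, and these 10 gave 19 of its 41174 probes. Emb was chosen by its low log2 ratio in this same comparison, so its values are a description and carry no test. The other 9 genes were picked for their roles.

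Pressure-treated oocytes had been held at 20 MPa and 37 °C for 60 min, and control oocytes shared those conditions without the pressure. A 2-colour array set 1 treated pool of 50 oocytes (Cy5) against 1 control pool of 50 (Cy3), and there were 4 such arrays, described by the submitters as biological replicates. Treated RNA was in the Cy5 channel on every array, so dye and treatment cannot be told apart. The labels used here give no strain, age or meiotic stage. RNA of each pool was amplified in a pair of rounds from 240 pg before labelling. In pooled oocytes a lower signal from fewer cells and one from less RNA per cell cannot be told apart.

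Monocarboxylate transporters carry pyruvate and lactate across the plasma membrane together with a proton. They need an accessory glycoprotein of the immunoglobulin superfamily to reach the surface. Basigin is the main partner of the products of Slc16a1 and Slc16a3, and embigin of that of Slc16a7, without the pairing being exclusive. Mouse oocytes depend on pyruvate as fuel, which cumulus cells make from glucose, and use glucose poorly themselves. Lactate dehydrogenase interconverts lactate and pyruvate, and the pyruvate dehydrogenase complex turns pyruvate into acetyl-CoA inside mitochondria.

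The probes are 60-base oligonucleotides, of which the first 30 bases are shown as the files give them, 5′ to 3′ in lower case. The Emb and Ldha probes are shown because detection and ratio depended on the probe, and the Ldhb and Bsg probes because they are the only ones for these genes. Probes of a gene are numbered in the direction in which their coordinates run, on mouse build mm7.
Emb probe 1 of 3, chr13:114434867-114434926: cagttcttgacatgtcctataaacctgaaa
Emb probe 2 of 3, chr13:114458354-114458649: caacaccttaaccagtcagtacaggttcat
Emb probe 3 of 3, chr13:114482837-114482896: atacaggaggactagtgcactatctttatg
Bsg, chr10:79490651-79490710: ccaatagcactgaagccaatggcaagtatg
Ldha probe 1 of 2, chr7:43030257-43031186: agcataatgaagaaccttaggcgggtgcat
Ldha probe 2 of 2, chr7:43031720-43031779: tatatgtgtctgtagtgtgcattgcaatat
Ldhb, minus strand, chr6:142578009-142578068: cagccatgtatgtaggtcacagtttgcttc
Emb probe 2 and Ldha probe 1 cover more than 60 bases of the genome and so bridge an intron. Emb probe 1 was designed on a RIKEN clone, and probes 2 and 3 on a RefSeq transcript. The files do not say whether the probes lie in coding sequence or in a UTR.

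Detection was counted as a spot well above background by the scanner software. Of 43379 spots an array, 7049 to 11155 passed for treated RNA and 8309 to 10837 for control RNA. Replicate 1 stood apart: its r with the other arrays was -0.19 to -0.15 over the log2 ratios of all probes, against 0.086 to 0.29 among those others. Its treated channel was also the brighter one, with a treated-over-control ratio of 2.56 at the 99th percentile of net signal, against 0.25 to 0.39 elsewhere. On replicate 2, 8 spots with extreme local background raised the normalized intensity of dim probes to about 159, against 56.4 to 57.9 on the other arrays, and so pulled its log2 ratios of dim probes toward 0. An alternative chosen after seeing the data set those backgrounds to the channel median. Its values are given beside the means of the set that it moved by 0.1 or more on the log2 scale. For other genes they are given where the mean changed sign. Replicate 2 of brighter probes moved too, for Ldhb from 0.05 to 0.33 and for Ldha probe 2 from -1.52 to -1.72.

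The oocyte label was checked against 14 oocyte genes, of which 10 had a probe kept for testing, among them Gdf9, Bmp15, Zp3 and Dazl, while Nlrp5 was not detected on any array. Their summed normalized intensity was 108907, 51742, 100558 and 136844 in treated pools, against 93669, 69534, 58974 and 97408 in control pools. It was higher in the treated pool on replicates 1, 3 and 4 and lower on replicate 2. Of 18 cumulus and granulosa genes 7 were kept (Cyp19a1, Hsd17b1, Hsd3b1, Inha, Nr5a2, Ptgs2 and Tnfaip6). Their sums were 1198, 2147, 1609 and 4738 in treated pools, against 1413, 2705, 2026 and 3546 in control pools. These were lower in the treated pool on replicates 1 to 3 and higher on replicate 4. Another 8 of that list, Foxl2, Fshr, Amh, Star, Cyp11a1, Kitl, Lhcgr and Slc38a3, were not well above background in either channel on any array. Of 12 blood genes 2 were kept, Hba-a1 and Srgn, with sums of 3557, 1219, 1193 and 3078 in treated pools, against 5203, 1512, 1639 and 4544 in control pools, lower in the treated pool on 4 of 4 arrays. Of 12 oviduct, endothelial or stromal genes 4 were kept, Acta2, Kdr, Krt8 and Vim, with sums of 1104, 2049, 1188 and 2188 in treated pools, against 1043, 1191, 978 and 1725 in control pools, higher in the treated pool on 4 of 4 arrays. Single probes did not all share the direction of these sums. The 2 blood probes had mean log2 ratios of -0.52 and 0.28. Among the 4 oviduct, endothelial or stromal probes 1 mean was below 0 and 3 above, and their median log2 ratio on replicate 4 was -0.59. The part of these cell types in the results below was not tested.

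A probe was kept for the test if it was well above background on at least 3 arrays in the same channel. By this rule 8 of the 19 probes were kept, from 7 of the 10 genes, out of 8124 kept probes in all. Bsg, Slc16a7 and Pdha1 had none. Among the 8 kept probes 5 passed through the control channel alone, Emb included, and 3 through both channels, so the kept probes of this set lean toward higher control values by the way they were chosen. Over all 19 probes, 25 of 76 pairs of probe and array passed that detection limit for treated RNA and 34 of 76 for control RNA. In Emb, Ldha, Slc16a1 and Dlat 1 probe was kept, the last along the gene in each. GC content ran from 35.0% to 51.7% over the 19 probes, with a median of 41.7% in the kept ones, against 40.0% over all probes.

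**Figure D1:**
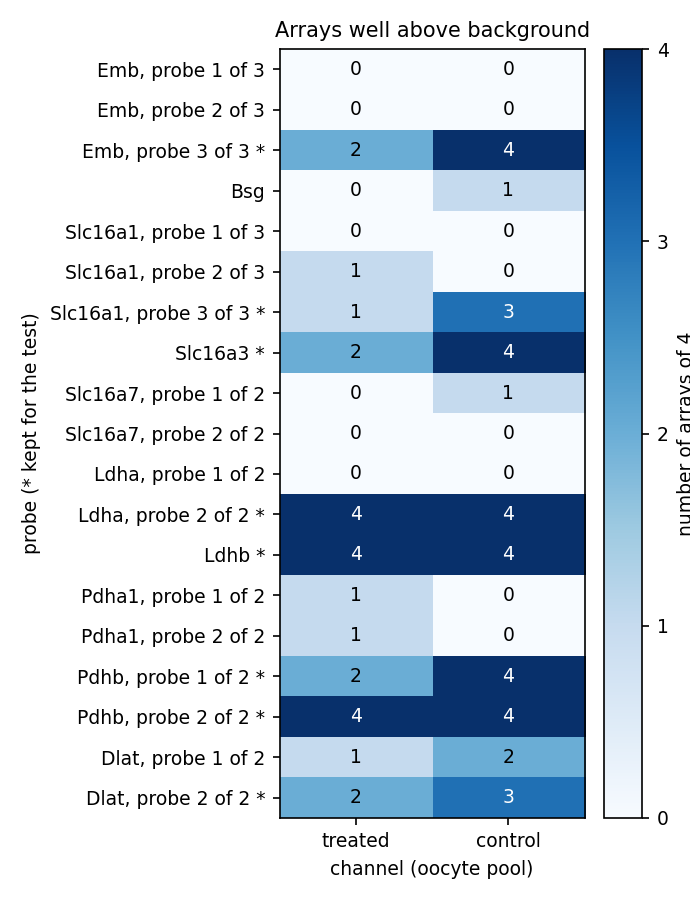
Number of arrays, out of 4, on which each of the 19 probes was well above background, with the treated channel in the left column and the control channel in the right; an asterisk marks the 8 probes kept for testing. Ldha probe 2, Ldhb and Pdhb probe 2 reached 4 arrays in both channels, and Emb probe 3 reached 2 in the treated and 4 in the control channel.

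Embigin was lower in treated than in control pools on each of the 4 arrays, with a mean log2 ratio of -1.59 ± 0.41 (SD, n = 4). This rests on probe 3, and no fold is given because the treated spot was near background on 2 of the arrays. Its normalized intensities for replicates 1 to 4 were 156, 186, 179 and 87.6 in treated pools, against 554, 435, 428 and 363 in control pools. Every treated value lay below every control value, as in 0.384% of kept probes. Emb was chosen by this low ratio and kept through the control channel alone, so the separation is only a description. The log2 ratios were -1.83, -1.23, -1.25 and -2.05, and replicates 1 and 4 were lower than replicates 2 and 3.

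The raw scanner intensities show how close the treated spots came to background. Emb probe 3 read 198, 48.0, 85.9 and 48.9 in treated pools, against 380, 524, 713 and 500 in control pools. The local background beside those treated spots was 33, 37, 33 and 39. On replicates 2 and 4 the treated spot was not well above background, so the ratio there depends on how background is handled. With the extreme backgrounds replaced, replicate 2 was at -2.16 and the mean at -1.83 ± 0.40 (SD, n = 4). The scanner software's processed signals gave -2.46, -4.94, -1.56 and -4.75, a mean of -3.43, and intensities without background subtraction a mean of -2.03. With the sign of replicate 1 turned, another alternative chosen after seeing the data, the mean was -0.68. On replicate 1 Emb was dimmer in the treated channel before normalization too. That array's trend at this brightness was 0.98 on the log2 scale, against -1.54 to -0.95 on the others.

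The other Emb probes were not well above background in either channel on any array, and their log2 ratios lay between -0.04 and 0.09. They give no level of their own, and the low ratio was read by 1 of the 3 probes.

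**Figure D2:**
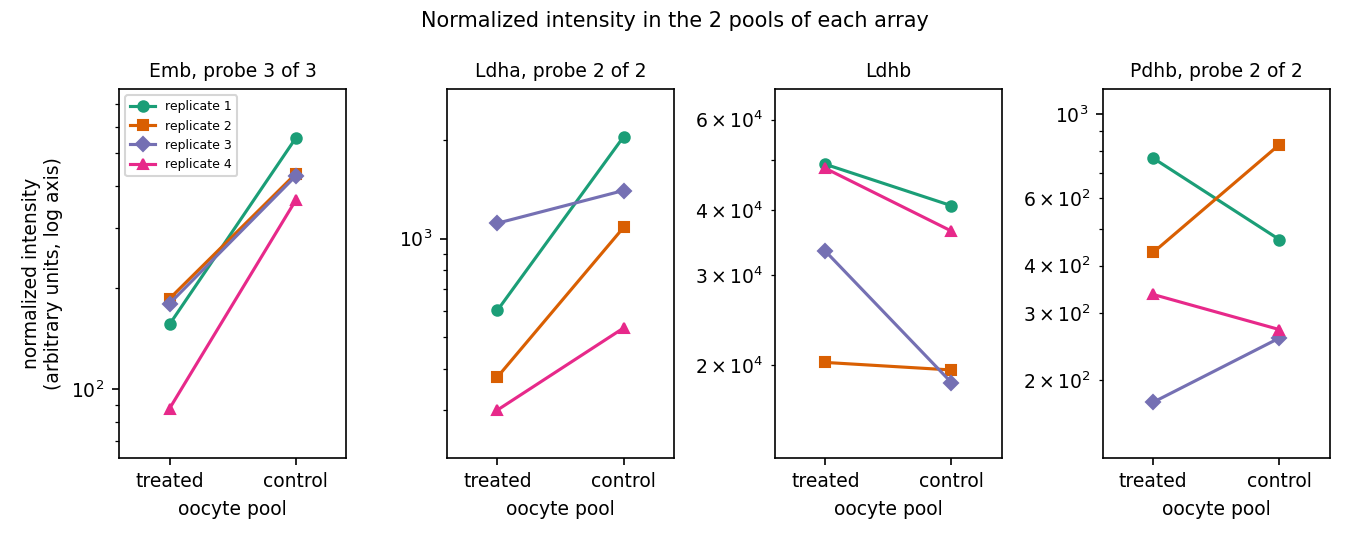
Normalized intensity (arbitrary units, log axis, a separate range in each panel) of Emb probe 3, Ldha probe 2, Ldhb and Pdhb probe 2 in the treated pool (left) and the control pool (right), with 1 line per array. All 4 lines climb toward the control pool for Emb and for Ldha, those of Ldhb slope the other way, and those of Pdhb probe 2 go both ways.

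The other accessory proteins were Bsg, and neuroplastin (Nptn), a relative of both. Bsg was barely measured: its probe was well above background on 1 array in the control channel and on none in the treated channel, with raw intensities of 43.0, 48.3, 42.6 and 47.1 in treated pools, against 45.7, 51.7, 45.5 and 55.6 in control pools. Its log2 ratios of 0.027, -0.0098, -0.097 and -0.10 went both ways, and no fold is given. Nptn was well above background on all arrays in both channels with both kept probes. Their mean log2 ratios were -0.61 ± 0.60 and -0.49 ± 0.50 (SD, n = 4), below 0 on 4 of 4 arrays in each. Replicate 4 was the lowest, at -1.44 and -1.22. Nptn did not pass the test, with an adjusted p of 0.934 for each probe (limma's moderated test of the log2 ratio against 0, Benjamini-Hochberg over all 8124 kept probes).

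Of the transporters, Slc16a1, the widely expressed carrier of lactate and pyruvate, gave values that went both ways. Its kept probe had normalized intensities of 59.4, 253, 61.4 and 61.0 in treated pools, against 59.6, 156, 65.7 and 94.7 in control pools. The log2 ratios were -0.0043, 0.70, -0.10 and -0.64, a mean of -0.010 ± 0.55 (SD, n = 4) with the groups overlapping. With the extreme backgrounds replaced, replicate 2 was at 1.62 and the mean at 0.22. Treated RNA gave a detected spot on replicate 2 alone, and on replicate 1 the control spot was undetected too. Slc16a1 was thus kept through the control channel alone, and its mean of -0.010 does not show an unchanged level. Processed signals gave log2 ratios of 0.15, 3.89, -1.78 and -4.12, a mean of -0.46. Slc16a1 did not pass (limma's adjusted p = 0.996).

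Slc16a3, the transporter known for lactate export from glycolytic cells, had normalized intensities of 54.3, 168, 226 and 85.3 in treated pools, against 90.1, 191, 77.2 and 71.9 in control pools. Its mean log2 ratio was 0.22 ± 0.97 (SD, n = 4), with replicates 1 and 2 below 0 and replicates 3 and 4 above. Replicate 3 alone stood at 1.55, and without it the mean was -0.22. With processed signals the mean was -0.89, and with the extreme backgrounds replaced it was 0.12. On replicates 1 and 2 the treated spot was not well above background, so Slc16a3 was kept through the control channel alone. Slc16a3 did not pass either (limma's adjusted p = 0.957).

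Slc16a7, the high-affinity pyruvate carrier that embigin serves, had 2 probes by the name rule, neither of them kept. Probe 1 was well above background on 1 array in the control channel and on none in the treated channel. Probe 2 was below detection throughout. Their log2 ratios ran from -0.17 to 0.13. A further probe that carries a clone name and matches Slc16a7 as a synonym was not kept. Whether Slc16a7 followed Emb was therefore not detectable at this signal.

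Lactate dehydrogenase A, the subunit that prevails in muscle and glycolytic tissue, had a mean log2 ratio below -1, as Emb had. Normalized intensities of Ldha probe 2 were 604, 378, 1115 and 300 in treated pools, against 2047, 1082, 1403 and 533 in control pools. Within each array the treated pool was the lower one, although across arrays the groups overlapped. The log2 ratios were -1.76, -1.52, -0.33 and -0.83, a mean of -1.11 ± 0.65 (SD, n = 4). With the sign of replicate 1 turned, the mean was -0.23. The probe was well above background in both channels on all 4 arrays. Ldha did not pass (limma's adjusted p = 0.934). Ldha probe 1 was not well above background on any array in either channel.

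Lactate dehydrogenase B, the heart-type subunit known to be abundant in mouse oocytes, did not share a low ratio. Ldhb had normalized intensities of 49161, 20272, 33338 and 48277 in treated pools, against 40851, 19600, 18527 and 36471 in control pools. The log2 ratios of 0.27, 0.05, 0.85 and 0.40 gave a mean of 0.39 ± 0.34 (SD, n = 4), above 0 on 4 of 4 arrays. Its sign depended on scaling: with median centring in place of loess Ldhb was at -0.42, where the median of all kept probes was at -0.32, and with processed signals it was at -0.18. Ldhb did not pass (limma's adjusted p = 0.934).

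Kept probes of the pyruvate dehydrogenase subunits had means below 0, with single arrays on both sides of 0 in each. Pdhb, the beta subunit of the first enzyme, had 2 kept probes with mean log2 ratios of -0.13 ± 0.12 and -0.12 ± 0.76 (SD, n = 4). Probe 2, well above background throughout, had normalized intensities of 766, 433, 175 and 336 in treated pools, against 468, 831, 258 and 272 in control pools. Replicates 1 and 4 were higher in the treated pool and replicates 2 and 3 lower. Its mean was 0.15 without replicate 2 and 0.025 without replicate 3. Probe 1 had log2 ratios of -0.17, -0.20, -0.19 and 0.05. With the extreme backgrounds replaced its replicate 2 was at -0.64 and its mean at -0.24. Probe 1 was kept through the control channel alone, as its treated spot was not well above background on replicates 2 and 3. With processed signals its mean was -1.38, against -0.11 for probe 2. The adjusted p from limma was 0.934 for probe 1 and 0.969 for probe 2.

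Dlat, the acetyltransferase core of the complex, rested on 1 array. Normalized intensities of its kept probe were 98.5, 163, 54.4 and 161 in treated pools, against 598, 180, 56.4 and 121 in control pools. The log2 ratio was -2.60 on replicate 1 and between -0.14 and 0.41 on the others, a mean of -0.60 ± 1.36 (SD, n = 4). The mean became 0.072 without replicate 1 and 0.70 with its sign turned. On replicate 2 only the control spot was well above background, and on replicate 3 neither was. With processed signals the log2 ratios were -3.66, -3.96, -0.036 and 0.64, a mean of -1.75. Dlat did not pass (limma's adjusted p = 0.934). Dlat probe 1 was well above background on 1 array in the treated and 2 in the control channel. Both Pdha1 probes, for the alpha subunit, were above background on 1 array in the treated channel and on none in the control channel. Their log2 ratios ran from -0.19 to 0.43, and no fold is given.

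**Figure D3:**
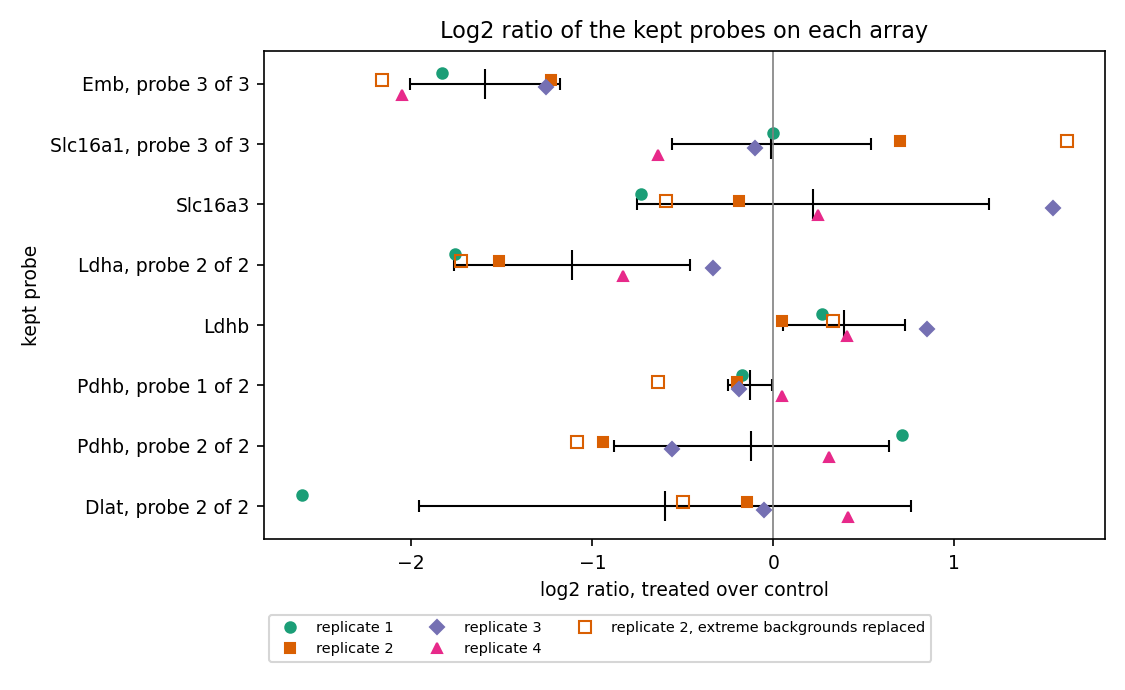
Log2 ratio of treated over control for the 8 kept probes, with 1 symbol per array, a vertical tick at the mean and bars of 1 SD (n = 4). Open squares give replicate 2 with its extreme local backgrounds replaced. Emb and Ldha lie below 0 on all 4 arrays and Ldhb above, while the other probes straddle 0.

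Set side by side, the 7 kept probes other than Emb had mean log2 ratios from -1.11 to 0.39 with a median of -0.12, against -0.016 over all kept probes. The median was -0.17, -0.19, -0.099 and 0.25 on replicates 1 to 4. Over the 16 probes other than Emb, with no filter, it was -0.013, and over all probes 0.0011. In limma's test 0 of the 8124 kept probes were called in either direction (0% each way, threshold 0.05 after adjustment), and so 0 of the 7. Without adjustment 328 kept probes were under 0.05, of which those lower in treated pools made up 3.26% of all kept probes and included 1 of the 7, Ldha. The mean was below 0 in 5 of the 7 and in 52.4% of kept probes. Of the 7, 1 was below 0 on all 4 arrays, where 9.22% of kept probes were, and 1 was above 0 on all 4, where 3.04% were. A mean of -1 or lower was reached by 1 of the 7, Ldha, and by 0.849% of kept probes. In 0 of the 7 did every treated intensity lie below every control intensity, a pattern of 0.384% of kept probes. As 4 of the 7 were kept through the control channel alone, these counts describe them and support nothing about the set.

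The next step inward, pyruvate entry into mitochondria and control of pyruvate dehydrogenase, was followed in 13 further genes, of which 11 had 15 kept probes. None was called, and 8 means lay below 0 and 7 above, with a median log2 ratio of -0.0019. Mpc1 and Mpc2 form the mitochondrial pyruvate carrier. The 2 probes of Mpc1 were at -0.12 ± 0.77 and 0.088 ± 0.53, and Mpc2 at -0.18 ± 0.094 (SD, n = 4), below 0 on 4 of 4 arrays. The second Mpc1 probe was at -0.027 with the extreme backgrounds replaced.

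The kinases that switch the complex off gave values near 0 or of mixed sign. Pdk1 was at -0.068 ± 0.77, Pdk4 at 0.019 ± 0.087, and the 2 probes of Pdk3 at 0.34 ± 0.71 and -0.0019 ± 0.19 (SD, n = 4). With the extreme backgrounds replaced Pdk1 was at 0.026 and Pdk4 at -0.0031. The phosphatase that switches it on, Pdp1, had -0.66 ± 0.64 (SD, n = 4), below 0 on 4 of 4 arrays. Pdp1 was detected on 3 arrays for control RNA and on none for treated RNA, so it was kept through the control channel alone. Its mean was at least 1.52-fold higher in control pools. This bound comes from means over the 4 arrays, leaves out their spread and is open to dye bias and to that selection. The log2 ratios were -1.48, -0.035, -0.29 and -0.83, and replicates 2 and 3 alone fell short of the bound. Pdp1 did not pass (limma's adjusted p = 0.934). The phosphatase's regulatory subunit, Pdpr, had 0.22 ± 0.58 and 0.037 ± 0.32 with its 2 probes.

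Remaining subunits lay within their spread of 0. Pdhx, which anchors the third enzyme, was at -0.13 ± 0.26, and Dld, that enzyme itself, at 0.15 ± 0.45 (SD, n = 4) with 1 probe and at -0.051 ± 0.36 on 3 arrays with the other. Pdha2, a paralog of Pdha1 best known from testis, was at -0.37 ± 0.61. Pcx, which carboxylates pyruvate to oxaloacetate, was at 0.36 ± 0.65 (SD, n = 4), with replicate 1 at -0.57 and the other arrays from 0.54 to 0.91. The smallest adjusted p of this list was 0.934 by limma.

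Other monocarboxylate transporters and Nptn made a list of 14 genes, of which 5 had 6 kept probes. None was called, 4 means were below 0 and 2 above, and the median log2 ratio was -0.36. Slc16a11, a family member of the liver and thyroid among other tissues, had -0.66 ± 0.67 (SD, n = 4), from -1.59 on replicate 1 to -0.030 on replicate 2. Slc5a12, a sodium-coupled carrier of lactate and pyruvate, had -0.24 ± 1.23 (SD, n = 4), with replicate 4 at 1.53 and the other 3 arrays below 0.

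Of 10 other enzymes that make or use pyruvate, 4 had 5 kept probes, with 0 called and a median log2 ratio of -0.014. Gpt, which exchanges pyruvate and alanine, had 0.42 ± 0.88. Malic enzymes turn malate into pyruvate: cytosolic Me1 had 0.34 ± 0.86 and -0.025 ± 0.17 with its 2 probes, and mitochondrial Me2 had -0.14 ± 0.80 (SD, n = 4 each).

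Glucose uptake and glycolysis gave 10 of 29 genes with 13 kept probes, 0 called, 8 means below 0 and 5 above, and a median of -0.074. Gpi1, which makes fructose 6-phosphate, had -0.76 ± 1.35 (SD, n = 4), from -2.30 on replicate 1 to 0.72 on replicate 3. Pgam1, the phosphoglycerate mutase, had -0.45 ± 0.53. Pgk1, the phosphoglycerate kinase, had -0.41 ± 0.68 and -0.41 ± 0.83 (SD, n = 4) with overlapping probes, and replicate 1 was above 0 in both.

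In the tricarboxylic acid cycle 10 of 19 genes had 12 kept probes, 0 called, 9 means below 0 and 3 above, and a median of -0.12. Mdh2, the mitochondrial malate dehydrogenase, had log2 ratios of -1.39, -0.35, -0.72 and -1.18, a mean of -0.91 ± 0.47 (SD, n = 4), with both channels well above background on all arrays. Sdhd, a membrane anchor of succinate dehydrogenase, had -0.35 ± 0.45, and Idh3g, a subunit of isocitrate dehydrogenase, 0.27 ± 0.41 (SD, n = 4).

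The malate-aspartate shuttle carries reducing equivalents from cytosolic NADH, such as lactate dehydrogenase yields, into mitochondria. All 6 of its genes had a kept probe, with 0 called, 3 means on either side of 0 and a median of 0.039. Slc25a11, the oxoglutarate carrier, had log2 ratios of -1.86, -0.019, -0.83 and -2.02, a mean of -1.18 ± 0.94 (SD, n = 4). Slc25a12, the aspartate and glutamate carrier, had -0.79 ± 0.71, with replicate 2 at 0.058 and the others below 0. Got2, the mitochondrial aspartate aminotransferase, had 0.29 ± 0.84 (SD, n = 4). Mdh2, Slc25a11 and Slc25a12 did not pass (limma's adjusted p = 0.934 each).

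**Figure D4:**
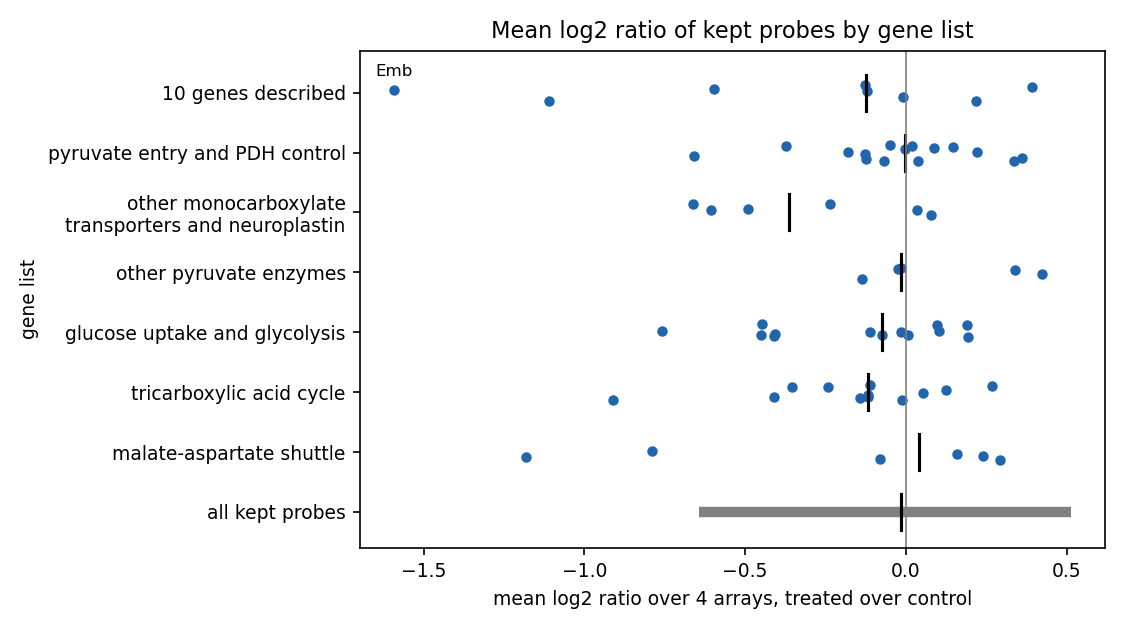
Mean log2 ratio over 4 arrays of every kept probe (points) in the 10 genes described and in the 6 further lists, with a black tick at each list's median; PDH is pyruvate dehydrogenase. The grey bar spans the 5th to 95th percentile of all 8124 kept probes, -0.64 to 0.51. Emb lies to its left, which follows from its choice by a low ratio in this same comparison.

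The genes whose pattern lay nearest to that of Emb were sought among 8067 other kept probes with 4 values, by Euclidean distance over the 4 log2 ratios. Pole3, a subunit of DNA polymerase epsilon, was nearest at a distance of 0.88, with a mean log2 ratio of -1.76. E330034G19Rik followed at 1.03 (mean -1.21), then Aagab, a clathrin adaptor chaperone, at 1.101 (mean -1.18). Osbpl5, a lipid transfer protein, was at 1.12 (mean -1.62), and Ndufb11, a subunit of respiratory complex I, at 1.14 (mean -1.15). The low means of these genes follow from the search for ratios like those of Emb and are only a description. Osbpl5 was kept through the control channel alone.

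**Figure D5:**
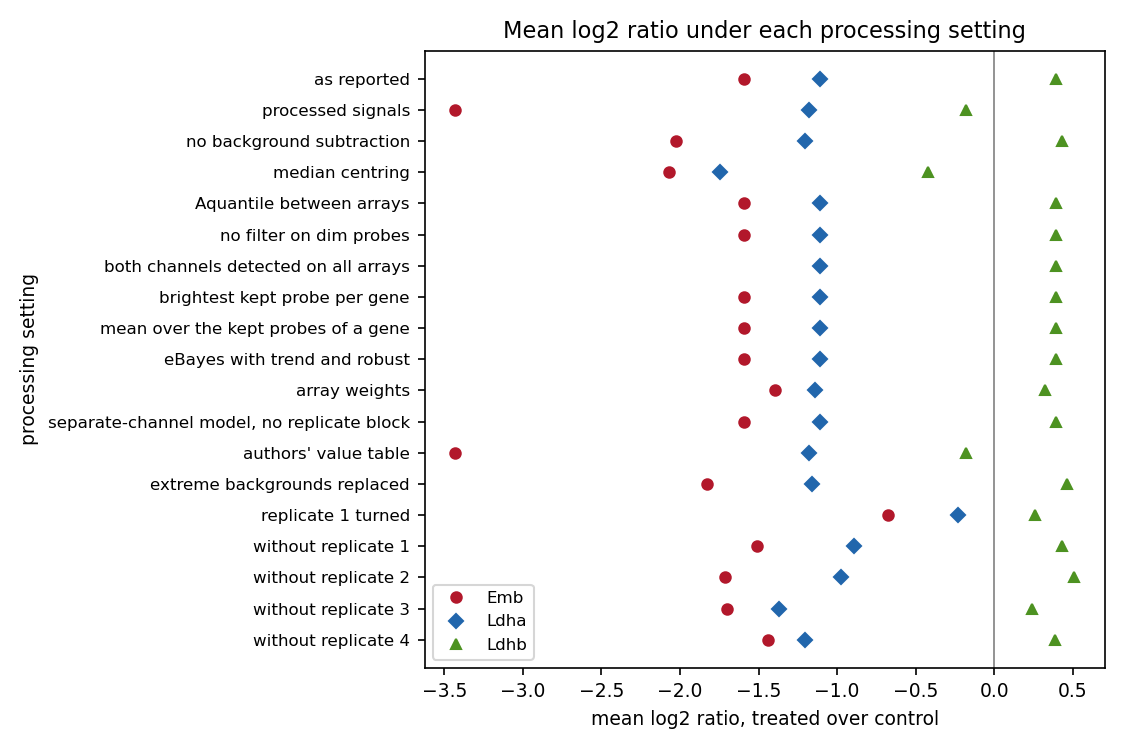
Mean log2 ratio of Emb (red circles), Ldha (blue diamonds) and Ldhb (green triangles) under each processing setting, listed down the page. Emb and Ldha stay below 0 throughout, Emb between -3.43 and -0.68, whereas Ldhb crosses 0 with processed signals, the authors' value table and median centring; Emb has no value where both channels had to be detected on all arrays.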

How the data were processed

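Mean spot and median local background intensity in both channels were read from the scanner files deposited by the authors, whose software, per the submitters' processing notes, was Agilent's Feature Extraction (9.5.1.1). The deposited log10 ratio of the authors' value table equals that of the scanner files to within 5e-10, with red (treated) over green (control). Per the file headers, the deposited processed intensity already had background subtraction and dye normalization.

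Using R 4.3.3 and limma 3.58.1, intensities went through normexp (offset 50) and then loess, where control spots had no weight. Outlier-flagged spots were left out, none was saturated, and spots of a probe were averaged. Over 8124 kept probes lmFit and eBayes tested whether the log2 ratio differed from 0, after a trial on simulated ratios. All 4 arrays share 1 slide and scan. The number of arrays limits precision. List genes were matched through RefSeq names (GRCm38.p6): an accession named 5945 kept probes, a symbol 995 and a synonym 478, while 165 stayed under the name in the files and 541 were unnamed.

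Genes named are all members, all kept genes of the pyruvate entry list, the 3 of smallest p in other lists, and the 5 nearest to Emb. Members and lists were chosen with earlier results of these data known. Cross-hybridisation was not examined.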

Additional observations from a re-analysis of the deposited data

Results flagged for a closer look

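Of 53 sets of 4 array values, 4 held a single array at a distance from the rest, a pattern that chance gives in about 1 of 20. For Pdhb probe 1 it was replicate 4, at a log2 ratio of 0.050 while the remaining arrays ran from -0.20 to -0.17. For Pdk1 it was replicate 1, at -1.21 beside values of 0.18 to 0.47. Pole3 stood at -2.82 on replicate 4 and at -1.46 to -1.35 on its other arrays. Replicate 3 gave the tricarboxylic acid cycle list a median of -0.24, and the other arrays gave -0.065 to -0.035.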

How the results depend on the processing

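Under all 18 alternatives 0 probes were called by limma, in the set, the lists or over all probes. The number under an unadjusted 0.05 ran from 141 to 1053, the latter of 41169 probes with no filter, against 328 of 8124 as reported. The lowest adjusted p was 0.0595 when the sign of replicate 1 was turned, an alternative added once the values were known and so chosen after seeing the data, and 0.193 without replicate 1. The ratio pairs the 2 pools of an array; a separate-channel model with no replicate block called 0, with 141 under an unadjusted 0.05. Emb was at -3.43 with processed signals and with the authors' value table, -2.03 without background subtraction, -2.07 with median centring and -0.68 with replicate 1 turned. The median of the other members was -0.89 with processed signals and with the authors' table, where the median of all kept probes was -0.135 in both. With median centring the other members were at -0.42 and all kept probes at -0.32. Leaving out 1 array gave -1.71 to -1.44 for Emb, -0.19 to -0.012 for the median of the other members and 0 calls. Of 45 other named probes, up to 17 moved by more than their SD and up to 12 changed sign in a setting. A block on slide could not be fitted with 1 slide. Dim treated spots limit Emb on replicates 2 and 4.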
